A study of Mus musculus with 4 samples.

Results

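The proteasome is the protease that degrades proteins tagged with ubiquitin, and the genes described here encode its subunits, its activators and the factors that assemble it. Probes were taken by gene symbol alone, as all those whose symbol in the platform annotation starts with Psma, Psmb, Psmc, Psmd, Psme, Psmf or Psmg followed by a digit. This gave 86 of the 45281 probes on the array and 49 of 19057 named genes, and the rule itself uses no measured value. A probe counted as above background on an array where its detection p was under 0.05, and a gene was tested where 1 of its probes reached this on 2 or more arrays. That left 68 probes and 42 proteasome genes among 10603 genes tested. The rule also takes 2 genes that encode no subunit, Psmc3ip, which acts in meiotic recombination, and Psme3ip1, whose product binds Psme3.

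The RNA came from mouse yolk sacs of strain C57BL/6 at embryonic day 9.5 and was read on Illumina bead arrays, on which the fluorescence of beads carrying a short probe measures a transcript. Of the 2 groups, ETV2 CKO held 2 arrays of yolk sacs in which Etv2 had been deleted by loxP and Cre in Flk1-positive cells with Flk1Cre. The other group, control, held 2 arrays, and its labels do not say whether these mice carried Flk1Cre or the loxP sites. The Etv2 protein is a transcription factor of the ETS family without which blood and vessels do not form, and Flk1 is an older name of Kdr, a receptor gene of their shared progenitors. The comparison addresses which transcripts differ in the yolk sac after this deletion. Nothing in the labels ties the 4 arrays to different embryos, pools or litters. The p-values therefore reflect only how far these samples spread, and that spread may be technical.

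In the complete proteasome a barrel-shaped core, the 20S particle, carries the proteolytic sites on the inner face of its beta rings, and outer alpha rings gate the entrance. A 19S cap on the end of the barrel binds ubiquitin chains and unfolds the substrate. The base of that cap holds a ring of ATPases, and its lid holds the enzyme that cuts the ubiquitin off. Cells make the constitutive subunits together, and inflammatory signals add immune forms of the catalytic subunits.

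Between 17934 and 18798 probes were above background on each array. Replicates correlated at 0.996 in both groups (Pearson, across the tested genes, which are not independent replicates). The labels could not be checked on the targeted gene. Etv2 was higher on the ETV2 CKO arrays by 0.46 ± 0.10 on the log2 scale (SE, n = 2 a group, limma adjusted p = 0.0199), and whether its probe lies in the deleted part is not known here. Yolk sac endoderm markers were present, as all 8 of that list (Afp, Ttr, Apoa1 and others) were above background, and 0 of the 8 passed limma's test, with 0 also at an unadjusted p under 0.05. Of these 8, Ttr and Apoa1 read 18270 to 20614 raw intensity units, near the highest intensity of any probe (23252 to 24688). Markers of other cell types passed the test in both directions, beside 10.8% lower and 14.4% higher over all tested genes. Of 9 tested erythroid markers 5 fell, and these 5 summed to 8713 to 9526 raw intensity units on ETV2 CKO arrays, against 14865 to 15524 on control arrays. The other 4 were globin genes, which read 19887 to 24326 on the 4 arrays, close to the highest intensity of any probe (23252 to 24688), and did not pass. All 9 erythroid markers together summed to 98847 to 102997 on ETV2 CKO arrays, against 99856 to 105323 on control arrays. Of 8 parietal endoderm markers 7 rose, with sums of 18125 to 19801 on ETV2 CKO arrays, against 9673 to 10629 on control arrays. Of 7 markers of mesothelium and mesenchyme 5 rose, with sums of 28383 to 31709 on ETV2 CKO arrays, against 21879 to 23533 on control arrays. Of 3 tested trophoblast markers 2 rose and 1 fell, and their sums were 1233 to 1523 on ETV2 CKO arrays, against 512 to 564 on control arrays. The endothelial list, with 6 genes tested, had 1 gene higher and 1 lower, and sums of 5671 to 6563 on ETV2 CKO arrays, against 5072 to 5548 on control arrays. The macrophage list, with 4 genes tested, had 1 higher and 1 lower, and sums of 820 to 854 on ETV2 CKO arrays, against 1024 to 1166 on control arrays. Xist was higher by 1.05 and the Y-linked Eif2s3y lower by 0.73 (log2, ETV2 CKO minus control). The labels give no sex, so sex and group cannot be told apart, and the part of the cell make-up in the results below was not tested. In tissue RNA, fewer cells of a type and less RNA per cell cannot be told apart either.

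Of the 42 tested proteasome genes 5 were called lower and 2 higher on the ETV2 CKO arrays (limma, adjusted p under 0.05), and 35 did not pass the test. The genes that fell were Psmd8, Psmd5, Psmd2, Psmg3 and Psmb10, and Psmb1 rose. The second gene called higher, Psmb8, was above background on the ETV2 CKO arrays alone, so it entered the test only through the group where it was high, and its call is no support for a rise. With detection required on all 4 arrays 41 proteasome genes were tested, 6 were lower and 1 was higher. Among all 10603 tested genes 25.2% passed, 10.8% lower and 14.4% higher, and of the proteasome genes 16.7% passed. Which of these shares was the larger depended on the setting: it was 35.7% of proteasome genes and 29.0% of all genes on the authors' values, 35.7% and 34.6% with an intensity trend, and 33.3% and 33.8% without background correction. Over all tested genes 1144 were lower and 1527 higher, and with arrays scaled to a common median in place of quantiles these were 649 and 1535. The median log2 difference of the 41 genes other than Psmd8 was -0.09, beside 0.02 over all tested genes. Of the 42 differences 33 were below 0, against 47.2% of all tested genes. The groups did not overlap for 33 of the 42, or 78.6%, beside 65.4% of all tested genes. Of these 33 genes 24 were lower and 9 higher on the ETV2 CKO arrays, and the shares over all tested genes were 29.7% and 35.7%. Differences within 0.5 of 0 on the log2 scale were found for 38 of the 42, or 90.5%, beside 84.9% of all tested genes. Psmd8 was the one proteasome gene that changed at least 2-fold.

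**Figure D1:**
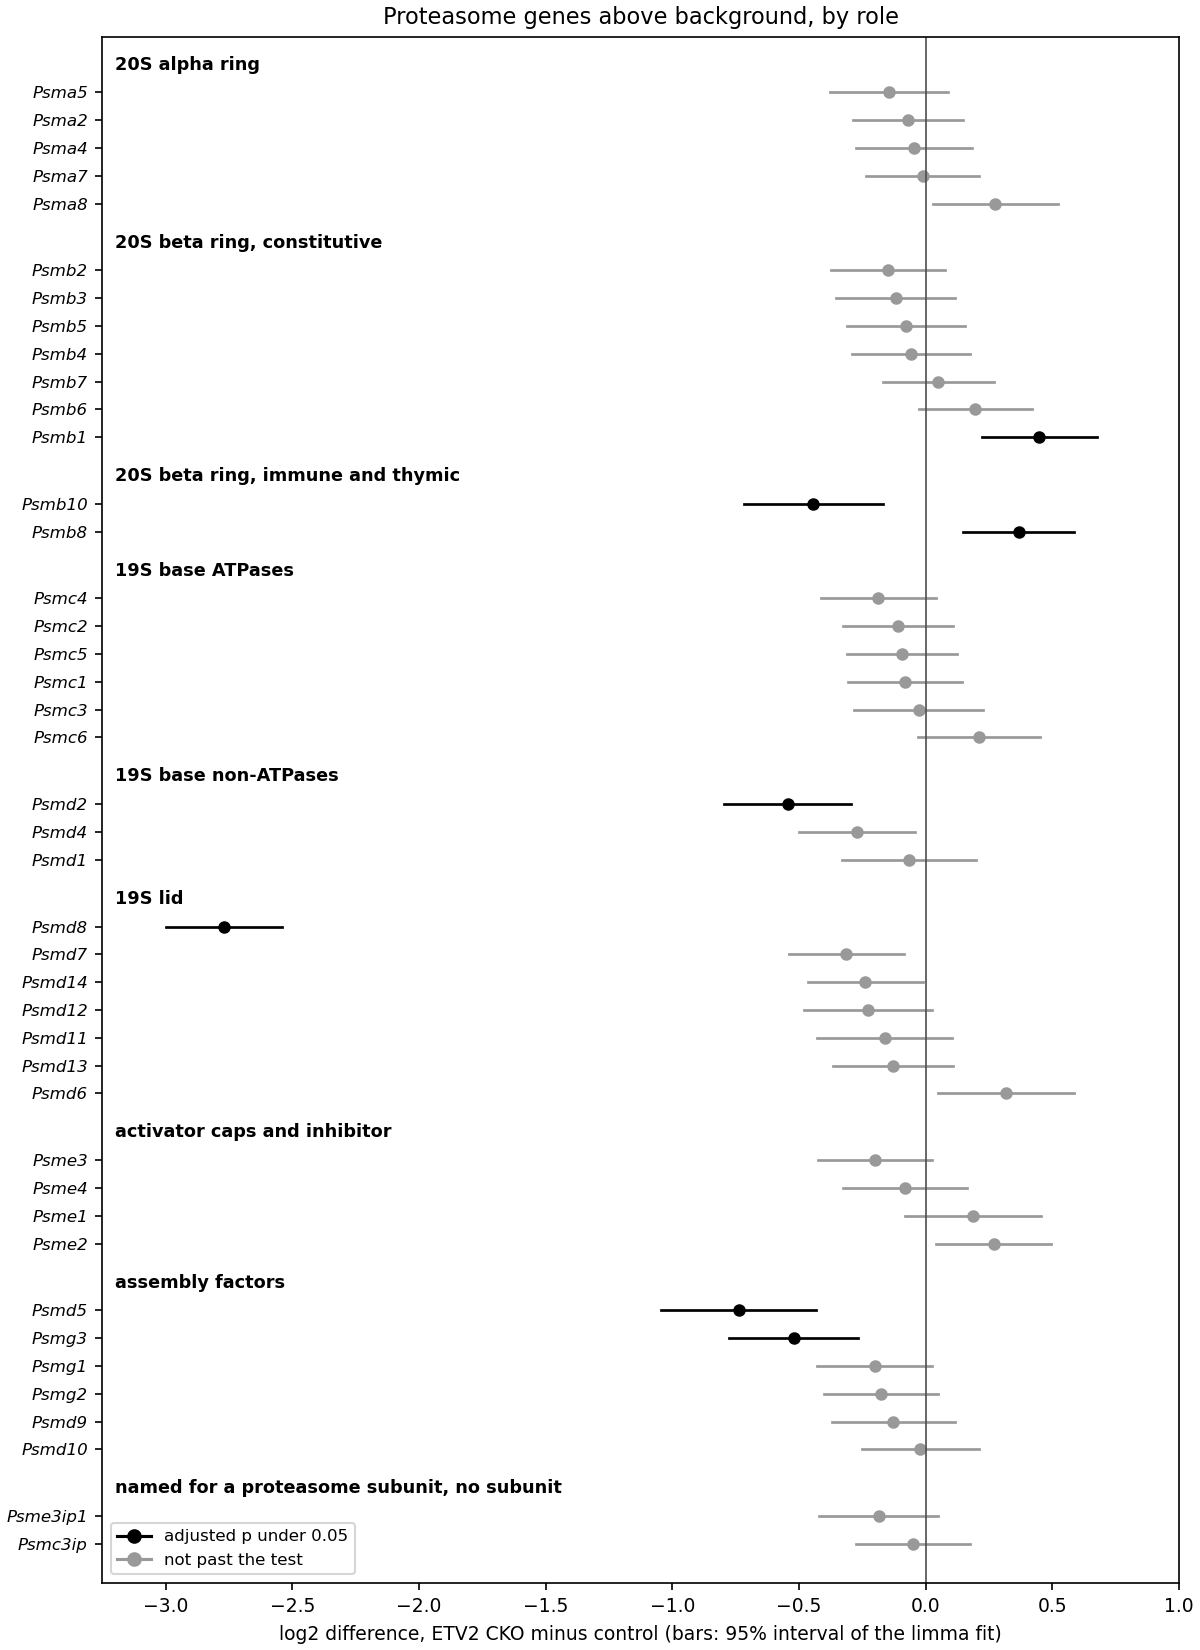
Log2 difference in normalized intensity, ETV2 CKO minus control, for the 42 proteasome genes above background, grouped by role (x axis, log2 units; points are the limma estimate, bars its 95% interval, black where the adjusted p is under 0.05). Psmd8 lies at -2.77, and the other 41 genes lie between -0.74 and 0.45.

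These counts fell without any single array, and so did the counts of lower and of higher genes over all tested genes. Without ETV2 CKO replicate 1 there were 4 lower genes, without ETV2 CKO replicate 2 there were 3, without control replicate 1 there were 2, and without control replicate 2 there were 4. In each of these 4 fits, in which the lone array of a group is assumed to vary like the other group, 0 genes were called higher (limma), with 2 to 4 at an unadjusted p under 0.05. Psmd8 and Psmd5 kept their calls in all 4. On the authors' own processed values 11 proteasome genes were lower and 4 higher, or 26.2% and 9.52%, beside 13.2% and 15.8% of all tested genes.

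Psmd8 encodes a subunit of the 19S lid, and its yeast counterpart is the last to join the lid before it docks on the base. Its raw intensity was 380 and 413 on the ETV2 CKO arrays, against 1849 and 2195 on the control arrays. After normalization the log2 values were 8.20 and 8.13 on ETV2 CKO arrays and 10.89 and 10.98 on control arrays. The arrays of a group lay close together and the groups did not overlap. The log2 difference was -2.77 ± 0.10 (SE, n = 2 a group, 95% interval -3.00 to -2.54, limma adjusted p = 0.000193), a 6.82-fold fall that left 14.7% of the control level. It was the lowest difference among the 10603 tested genes. Psmd8 had been singled out with this result known.

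All of this came from 1 of the 2 Psmd8 probes. The other probe had raw intensities of 108 and 109 on ETV2 CKO arrays and 102 and 97.1 on control arrays, and it was above background on 0 of the 4 arrays. It therefore gives no second reading of the transcript. Across 15 alternatives of processing or sample choice, each named with the processing steps, the Psmd8 difference lay between -2.81 and -2.17.

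**Figure D2:**
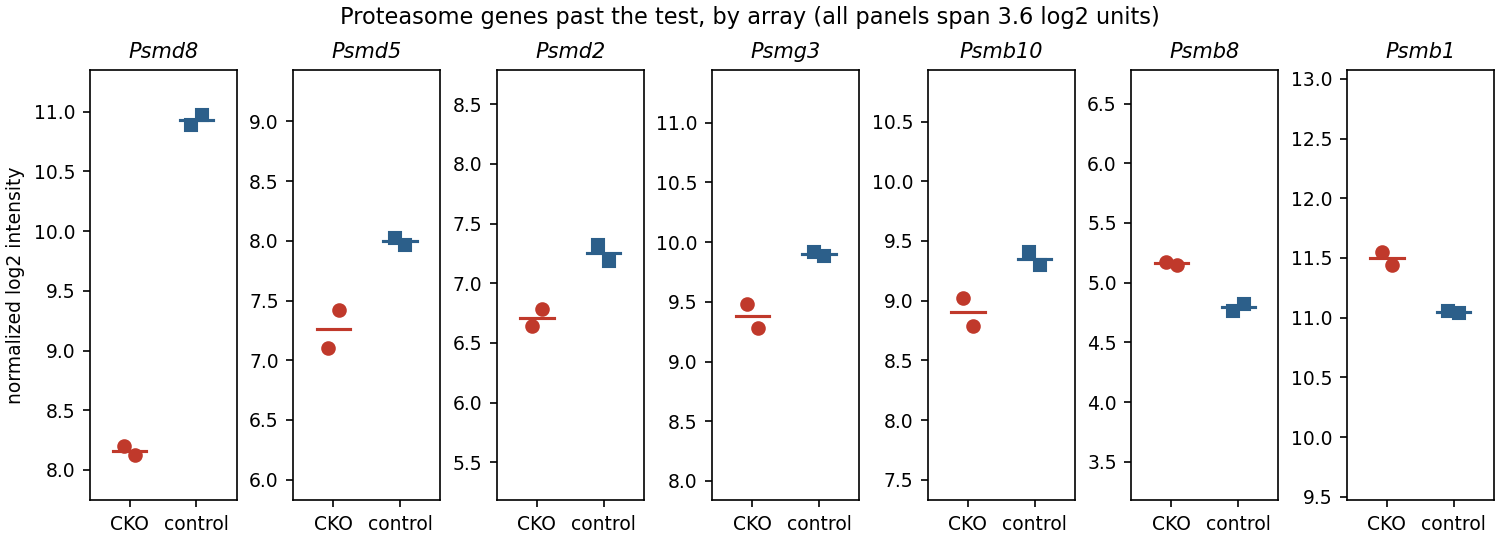
Normalized log2 intensity (y axis) of the 7 proteasome genes past the test on each array, ETV2 CKO in red circles and control in blue squares, with a line at the group mean; n = 2 a group, and each panel spans the same number of log2 units. Psmb8 was above background on the ETV2 CKO arrays alone. The groups do not overlap in any of the 7 panels, nor for 65.4% of all tested genes. These 7 genes were picked by the test on the same values. The Psmd8 difference is -2.77, beside -0.74 for Psmd5.

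The other lid genes did not pass the test. The 6 of them above background had log2 differences from -0.31 to 0.32, and 0 were called by limma, beside 25.2% of all tested genes. An unadjusted p under 0.05 was found for 3 of the 6, beside 4136 of all 10603 tested genes. Each of these 6 lid genes had groups that did not overlap, as did 65.4% of all tested genes. Some of them passed under other settings, Psmd7 in 5 alternatives, Psmd6 in 4, Psmd14 in 3 and Psmd12 in 2, and there their log2 differences lay between -0.32 and 0.32. With each gene centred on its own mean over the 4 arrays, Psmd8 stood at -1.35 and -1.42 on the ETV2 CKO arrays and at 1.34 and 1.43 on the control arrays. The median of the other 6 lid genes was -0.10 and -0.09 on ETV2 CKO arrays and 0.07 and 0.13 on control arrays. The Psmd8 difference minus the median of those 6 genes was -2.57, and minus the median of the other 41 proteasome genes it was -2.68 (log2). Both are descriptions without a test. On the authors' values the first was -1.99.

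**Figure D3:**
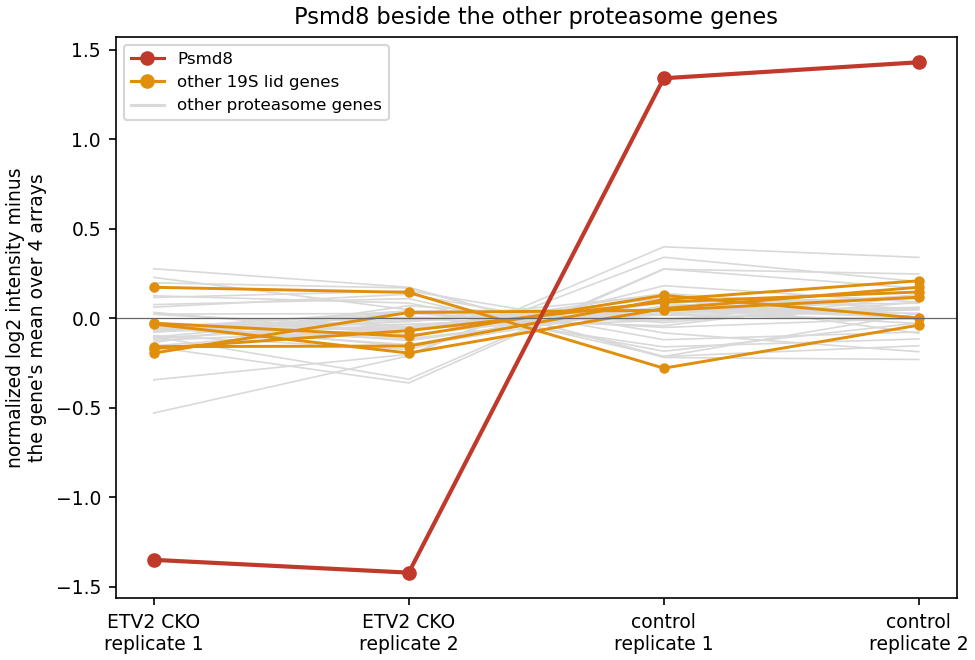
Normalized log2 intensity of each proteasome gene minus its own mean over the 4 arrays (y axis), by array, with 1 line a gene: Psmd8 in red, the other 6 tested lid genes in orange, the other proteasome genes in grey. Psmd8 lies at -1.35 and -1.42 on the ETV2 CKO arrays and at 1.34 and 1.43 on the control arrays, and the other lid genes stay between -0.28 and 0.21.

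Psmd7, which pairs with the deubiquitinase Psmd14, came closest to the threshold among them. Its brightest probe read 12.02 and 12.02 on ETV2 CKO arrays and 12.28 and 12.39 on control arrays, a difference of -0.31 ± 0.09 (limma adjusted p = 0.0536, n = 2 a group). Its 3 probes did not give the same size of difference. In a fit over probes the second stood at -0.53 (limma adjusted p = 0.0317) and the dimmest at -0.06 (0.730). Psmd14, the metalloprotease of the lid that removes ubiquitin from substrates, read 10.72 and 10.82 on ETV2 CKO arrays and 10.98 and 11.03 on control arrays. The groups did not overlap for Psmd14, but the difference of -0.24 (95% interval -0.47 to -0.01) did not pass (limma adjusted p = 0.116). The structural lid genes Psmd12, Psmd11 and Psmd13 stood at -0.23, -0.16 and -0.13, and a dimmer Psmd12 probe at 0.01. Psmd6, another structural subunit, was the one lid gene with a positive difference, 0.32 by its brighter and 0.24 by its dimmer probe (95% interval of the brighter 0.05 to 0.59, limma adjusted p = 0.0836). Neither of the 2 probes of the lid gene Psmd3 was above background on any array.

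The sequence upstream of Psmd8 is shown because the study deleted an ETS factor. The ETS-type letters CGGAAG, called the core here, were searched there on both strands, and shorter forms were not. Promoter windows were the 250 bases before the annotated start, credited to RefSeq on build GRCm38.p6, which held 41 of the 49 genes. In the lines below, capitals mark the core, which reads CTTCCG where it lies on the other strand. The Psmd8 window is chr7:29180674-29180923, minus strand, with 1 core that begins 16 bases before the start. The other 5 lid genes with a window are shown as the stretch around the core nearest to the start: Psmd6 at chr14:14120957-14121016 on the minus strand, Psmd11 at chr11:80428577-80428614, Psmd12 at chr11:107479484-107479527, Psmd13 at chr7:140882276-140882335 and Psmd14 at chr2:61711553-61711612, all 4 on the plus strand.
Psmd8: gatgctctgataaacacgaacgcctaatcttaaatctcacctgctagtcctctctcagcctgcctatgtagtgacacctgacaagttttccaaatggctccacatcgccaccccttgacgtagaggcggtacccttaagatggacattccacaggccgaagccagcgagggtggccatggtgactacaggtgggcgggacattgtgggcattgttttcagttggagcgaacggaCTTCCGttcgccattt
Psmd6: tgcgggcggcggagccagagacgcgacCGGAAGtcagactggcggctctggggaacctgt
Psmd11: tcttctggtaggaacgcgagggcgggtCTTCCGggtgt
Psmd12: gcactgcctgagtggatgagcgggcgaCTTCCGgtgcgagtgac
Psmd13: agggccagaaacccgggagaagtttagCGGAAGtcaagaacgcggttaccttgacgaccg
Psmd14: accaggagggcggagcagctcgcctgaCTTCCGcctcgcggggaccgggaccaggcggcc
All 6 lid windows held the core, among them those of 5 genes that did not pass the test. It was present in 20 of 41 proteasome windows (48.8%), in 28.1% of 8591 windowed genes that were tested and in 15.3% of all 27025 windowed genes. Of the proteasome genes past the test 2 of 6 with a window held it, namely Psmd8 and Psmd2, and of those not past it 16 of 29. The letters TGACNNNGC, the kind of element bound by the proteasome gene regulator Nfe2l1, were in 12.2% of proteasome windows and 13.8% of windows of tested genes, and not in that of Psmd8. The box CCAAT was in 39.0% and 40.5%, and not in that of Psmd8 either. A match is a run of letters and not a measured binding site, and a missing match says only that these letters are not in this window.

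Psmd8 lies on chromosome 7, as Etv2 does, 36 tested genes away in the RefSeq order. Of the 5 nearest tested genes on each side 2 fell and 0 rose, beside 10.8% lower and 14.4% higher over all genes. Rasgrp4, which encodes a Ras activator of myeloid and mast cells, read 6.96 and 6.88 on ETV2 CKO arrays and 7.64 and 7.76 on control arrays (log2 difference -0.79 ± 0.10, limma adjusted p = 0.00391, n = 2 a group). Spint2, which encodes a membrane inhibitor of serine proteases, fell by 0.67 ± 0.14 (limma adjusted p = 0.0185). The other 8 had differences from -0.14 to 0.21 and did not pass. The coding genes directly beside Psmd8, Ggn and Catsperg1, had 2 probes and 1 probe, none of which was above background.

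**Figure D4:**
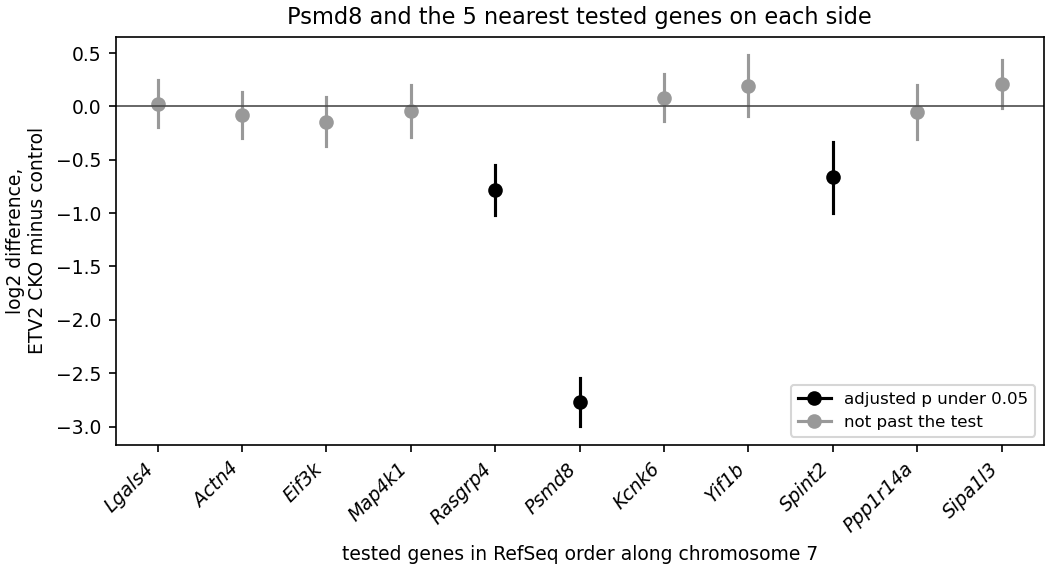
Log2 difference, ETV2 CKO minus control (y axis), for Psmd8 and the 5 nearest tested genes on each side in their order along chromosome 7 (x axis, not to distance); points are the limma estimate, bars its 95% interval, black where the adjusted p is under 0.05. Rasgrp4 at -0.79 and Spint2 at -0.67 are lower, and the 8 grey genes lie between -0.14 and 0.21.

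In the base of the 19S cap, 1 of 3 non-ATPase genes fell and 0 of 6 ATPase genes passed limma's test, with 0 of the 6 at an unadjusted p under 0.05. The shares over all tested genes were 10.8% lower and 14.4% higher. Psmd2 encodes the large scaffold subunit to which shuttle proteins with a ubiquitin-like domain dock. It read 6.64 and 6.78 on ETV2 CKO arrays and 7.32 and 7.19 on control arrays, so the groups did not overlap. Raw intensities were 192 and 225 on ETV2 CKO arrays and 230 and 238 on control arrays. The log2 difference was -0.54 ± 0.11 (limma adjusted p = 0.0142, n = 2 a group). In 4 of 15 alternatives the call was lost, among them those without ETV2 CKO replicate 1 (-0.47) and without control replicate 1 (-0.48). The Psmd2 difference stood at -0.31 without background correction and at -0.19 on the authors' values. The dimmer Psmd2 probe stood at -0.21 (limma adjusted p = 0.370 in the fit over probes). Psmd1, the other large scaffold, stood at -0.07 with 3 probes between -0.08 and -0.04, and Psmd4, a receptor for ubiquitin chains, at -0.27 (limma adjusted p = 0.0835). The ATPase genes Psmc1 to Psmc6, whose products form the unfolding ring, ran from -0.19 for Psmc4 to 0.21 for Psmc6, with a median of -0.09.

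Of 5 tested alpha ring genes 0 passed limma's test, beside 25.2% of all tested genes. An unadjusted p under 0.05 was found for 1 of the 5, Psma8, beside 4136 of all 10603 tested genes. Of the 5 differences 4 lay between -0.14 and -0.01. Psma2 read 13.65 and 13.65 on ETV2 CKO arrays and 13.70 and 13.74 on control arrays, and its 95% interval for the difference was -0.29 to 0.15. Psma8, a form known from testis, was dim, with 5.67 and 5.49 on ETV2 CKO arrays and 5.28 and 5.33 on control arrays, and its difference of 0.28 did not pass. The ubiquitous subunit genes Psma1, Psma3 and Psma6 each had 1 probe, and none of these 3 probes was above background on any array, with raw intensities between 88.1 and 113. A probe at background sets no level for its transcript.

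Among the 7 constitutive beta ring genes 1 rose and 6 did not pass, beside 14.4% higher over all tested genes. Psmb1, a beta subunit without a proteolytic site, read 11.55 and 11.44 on ETV2 CKO arrays and 11.05 and 11.04 on control arrays. Both ETV2 CKO values were higher, and the log2 difference was 0.45 ± 0.09 (1.37-fold, limma adjusted p = 0.0187, n = 2 a group). The difference kept its size without any single array, at 0.40 to 0.50, but in all 4 such fits the limma adjusted p lay between 0.0518 and 0.0876. The 3 catalytic genes did not pass. Psmb5, of the chymotrypsin-like site, read 11.09 and 11.23 on ETV2 CKO arrays and 11.25 and 11.22 on control arrays, with overlapping groups and a difference of -0.08 (95% interval -0.31 to 0.16). Psmb6, of the caspase-like site, stood at 0.20 (limma adjusted p = 0.169) and at 0.05 by its dimmer probe. Psmb7, of the trypsin-like site, stood at 0.05 by its brightest probe, and its 4 probes ran from -0.08 to 0.05.

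Of the immune beta genes Psmb10 fell, and Psmb8 was read above background in one group only. The immune subunits replace the catalytic ones in cells exposed to interferon and in many blood cells. Psmb10, the counterpart of Psmb7, read 9.03 and 8.79 on ETV2 CKO arrays and 9.41 and 9.30 on control arrays. It fell by 0.44 ± 0.12 on the log2 scale (limma adjusted p = 0.0348, n = 2 a group), and its second probe stood at -0.53 (0.0313 in the fit over probes). With no filter on dim probes Psmb10 did not pass (-0.44, limma adjusted p = 0.0576). The Psmb10 call was lost without ETV2 CKO replicate 2 (-0.32, limma adjusted p = 0.152), control replicate 1 (-0.39, 0.118) or control replicate 2 (-0.50, 0.0645). Psmb8, the counterpart of Psmb5, was near background, with raw intensities of 130 and 139 on ETV2 CKO arrays and 110 and 117 on control arrays. It was above background on both ETV2 CKO arrays and on neither control array, which gives a bound of at least 1.05-fold higher. The fitted difference was 0.37 (limma adjusted p = 0.0312), a description here, since the filter kept Psmb8 through the ETV2 CKO arrays alone. The bound sets the mean of the ETV2 CKO arrays against the lowest signal above background on the control arrays. The Psmb8 call was lost without any 1 of the 4 arrays (differences of 0.34 to 0.40, limma adjusted p from 0.0764 to 0.118) and on the authors' values (0.06, limma adjusted p = 0.385). It was also lost without background correction (0.12, 0.220), with an offset of 50 (0.18, 0.140), with an intensity trend (0.37, 0.186) and with dimmest probes (0.37, 0.0549). Psmb9, the counterpart of Psmb6, and Psmb11, a form of the thymic cortex, were each above background on 1 array only and were not tested.

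Of the 4 activator genes 0 passed limma's test, beside 25.2% of all tested genes. An unadjusted p under 0.05 was found for 1 of the 4, Psme2, beside 4136 of all 10603 tested genes. Psme1 and Psme2, which encode the interferon-inducible activator ring, stood at 0.19 and 0.27. Psme2 read 8.85 and 8.88 on ETV2 CKO arrays and 8.65 and 8.54 on control arrays (95% interval of the difference 0.04 to 0.50, limma adjusted p = 0.0837). Psme3, of the nuclear activator, stood at -0.20 and Psme4, of a large single-chain activator, at -0.08.

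Among 6 tested assembly factor genes 2 fell and 4 did not pass, and all 6 differences were below 0. Over all tested genes 10.8% were lower and 47.2% had a difference below 0. Psmd5 encodes a chaperone that holds ATPase subunits of the base until the cap forms. It read 7.10 and 7.42 on ETV2 CKO arrays and 8.03 and 7.97 on control arrays. The 2 ETV2 CKO values differed by 0.32, the widest replicate gap among the 42 genes in that group, and both lay below the control values. The log2 difference was -0.74 ± 0.13 (1.67-fold, limma adjusted p = 0.00968, n = 2 a group), and the call held without any 1 array at -0.90 to -0.58. On the authors' values it stood at -0.34 (limma adjusted p = 0.00495). All of this came from 1 Psmd5 probe, with raw intensities of 228 and 294 on ETV2 CKO arrays and 323 and 342 on control arrays. The other Psmd5 probe was above background on 0 of the 4 arrays.

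Psmg3 encodes a chaperone of alpha ring assembly. It read 9.48 and 9.28 on ETV2 CKO arrays and 9.91 and 9.89 on control arrays, with a difference of -0.52 ± 0.11 (limma adjusted p = 0.0167, n = 2 a group). The Psmg3 call was lost without ETV2 CKO replicate 2 (-0.42, limma adjusted p = 0.0795) and without control replicate 1 (-0.51, 0.0545). Its fellow chaperones of the alpha ring, Psmg1 and Psmg2, stood at -0.20 and -0.18, and the 3 probes of Psmg2 lay between -0.32 and -0.18. The base chaperones Psmd9 and Psmd10 stood at -0.13 and -0.02, and the 3 probes of Psmd10 ran from -0.28 to -0.02. Psmg4 was not above background on any array. The 2 genes that encode no subunit, Psmc3ip and Psme3ip1, stood at -0.05 and -0.19 and did not pass.

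Among the 35 genes that did not pass the test, 31 had a 95% interval that lay within 0.5 of 0 on the log2 scale, and 6 had an unadjusted p under 0.05. For 20 of the 42 genes several probes were above background, and in 18 of these all probes gave one sign. Psmb7 and Psmd12 were the exceptions, and the widest gap between probes of a gene, 0.47, was that of Psmd7. RefSeq lists 6 pseudogenes named for Psma5, Psmb5, Psmb6 and Psmb7, and whether the probes of these 4 genes also read such copies was not tested.

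Genes around the proteasome were followed in 5 lists, of which 50 of 75 genes were tested, 4 fell, 2 rose and 44 did not pass, or 8% lower and 4% higher, beside 10.8% and 14.4% of all tested genes. The median of these 50 was -0.02. Among 9 tested partners of the particle 1 fell, Ublcp1, which encodes a nuclear phosphatase of the proteasome. Ublcp1 read 10.54 and 10.62 on ETV2 CKO arrays and 11.02 and 11.10 on control arrays (difference -0.49 ± 0.10, limma adjusted p = 0.0151, n = 2 a group). The subunit gene Sem1 stood at 0.06, the core assembly gene Pomp at -0.01, and the deubiquitinase genes Usp14 and Uchl5 at 0.04 and -0.25.

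Of 9 tested genes of factors linked to proteasome transcription 2 fell, beside 10.8% of all tested genes. The median difference of the 9 was -0.25. An unadjusted p under 0.05 was found for 5 of them, beside 4136 of all 10603 tested genes. Of these 5, Foxo4 at -0.65, Nfyb at -0.34 and Mafg at -0.25 did not pass (limma adjusted p from 0.0659 to 0.101). Nfe2l2, of the oxidative stress response, read 6.76 and 6.64 on ETV2 CKO arrays and 7.04 and 7.34 on control arrays, a difference of -0.49 (limma adjusted p = 0.0341). Nfya, of the factor that binds CCAAT boxes, stood at -0.46 (limma adjusted p = 0.0256). Nfya was near background, with raw intensities of 132 and 135 on ETV2 CKO arrays and 130 and 140 on control arrays. Those of Nfe2l2 were 201 and 213 on ETV2 CKO arrays and 205 and 254 on control arrays. For both genes the groups overlapped in raw intensity and were apart only after background correction and normalization. Nfe2l1, which drives proteasome genes when the protease is blocked, stood at 0.01 with a 95% interval of -0.26 to 0.28. Among 11 ubiquitin and shuttle genes, such as the unfoldase gene Vcp at -0.02 and the shuttle gene Rad23b at -0.01, 0 passed limma's test, and 0 had an unadjusted p under 0.05. The COP9 signalosome and the translation factor eIF3 have subunits related to those of the lid, and of 15 such genes 0 passed limma's test and 0 had an unadjusted p under 0.05, with differences from -0.22 to 0.18.

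Of 6 tested genes of class I antigen presentation, which uses peptides cut by the proteasome, 2 rose and 1 fell, beside 14.4% and 10.8% of all tested genes. B2m, of the light chain, read 12.41 and 12.44 on ETV2 CKO arrays and 12.07 and 12.07 on control arrays (difference 0.36, limma adjusted p = 0.0324). H2-D1, of a heavy chain, stood at 0.41 (limma adjusted p = 0.0279). The chaperone gene Calr fell by 0.53 (limma adjusted p = 0.00932). The peptide transporter genes Tap1 and Tap2 were not above background. Without any 1 array the counts of lower and of higher genes in the lists fell, as did those over all tested genes.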

How the data were processed

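The authors deposited a table of probe intensity values on a linear scale, not normalized per its name, with 1 detection p-value beside each intensity per the file headers. Per the submitters' processing notes lumi 2.15.1 was among the tools, and its role is not stated there. A second deposited table holds the authors' normalized intensity values, with equal medians (201 on each array) as judged from the values. How it was normalized is not stated, and it served as an alternative only. Here signals were background-corrected and quantile-normalized with neqc of limma 3.58.1 in R 4.3.3 (offset 16, log2). A gene was read by its brightest probe above background, and 18817 probes passed the filter. Group differences were fitted with lmFit and eBayes, 2-sided, with Benjamini-Hochberg adjustment over 10603 genes, a threshold of 0.05 and 6.54 degrees of freedom. An exact permutation test of 2 against 2 arrays cannot go below p = 0.333. The number of arrays limits the precision, and the median standard error was 0.105.

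The array has 34885 probes with 1 symbol, 18 with several and 10378 unnamed here. The named genes were all members by role, with the genes past the test, catalytic and immune beta genes and lid genes in full. Genes of other lists that did not pass were named after their values were seen, and the motifs were chosen after the results were known. Members and lists were chosen with earlier results of these data known. Alternatives were no background correction, median scaling, the authors' values, an offset of 50, no filter, detection on all 4 arrays, the mean or the dimmest of a gene's probes, a fit over probes, an intensity trend, a replicate block, and leaving out each array. The fit was tested on simulated data.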

Additional observations from a re-analysis of the deposited data

How the results depend on the processing

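Psmd8 kept its direction and its call in all 15 alternatives. Having 1 probe above background, Psmd8 could not change its log2 difference with the choice of probe, filter, intensity trend or replicate block. Its difference minus the median of the other lid genes was -2.57, with -1.99 on the authors' values, -2.25 where background was left in, -2.44 with the larger offset, -2.68 with dimmest probes and -2.63 to -2.52 without single arrays. The median of the other proteasome genes was -0.0820 on the authors' values, -0.0819 with no filter, -0.0818 with dimmest probes, -0.11 with probe means and -0.11 to -0.0761 without single arrays. The 5 lower proteasome genes became 10 without background correction, 11 on the authors' values, 11 with an intensity trend and 2 to 4 without single arrays. The 2 higher ones became 4 in each of those first 3 settings, 1 with detection on all arrays, 1 with dimmest probes and 0 without any single array (limma, 2 to 4 at an unadjusted p under 0.05). The 4 lower genes of the surrounding lists became 10, 9 and 11 in those 3 settings in the same order, 2 under median scaling and 2 to 3 without single arrays. Their 2 higher genes became 4 on the authors' values, 1 under median scaling, 1 with probe means and 0 without any single array (limma, 2 at an unadjusted p under 0.05). Over all genes, 1144 were lower and 1527 higher, and these became 1400 and 1679 with the authors' values, 1600 and 1986 where background was left in, 1633 and 2036 with an intensity trend, 649 and 1535 under median scaling, 1012 higher with dimmest probes, and 545 to 671 lower and 751 to 1013 higher without single arrays. The causes were not tested, beyond fewer arrays or genes where a setting has them. Some differences close to 0 changed sign, all of them outside the called genes. They were Psmb7 with probe means (-0.00070), Psmd12 with dimmest probes (0.0095), Psmd10 under median scaling (0.0056), and, without single arrays, Psmd10 (-0.0703 to 0.0288), Psma4 (-0.10 to 0.00762), Psma7 (-0.0597 to 0.0349), Psmb4 (-0.12 to 0.00351), Psmc3 (-0.13 to 0.0699), Psmd1 (-0.17 to 0.0373) and Psme4 (-0.16 to 0.00031). The labels number the arrays of each group alike without stating a pairing, and the replicate deviations of the groups correlated at 0.07 (Pearson, across 10603 genes, which are not independent replicates). The fit with the replicate block called 5 proteasome genes lower and 2 higher, with Psmd8 at -2.77 (limma adjusted p = 0.00175), and 1164 lower and 1561 higher genes over all.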
